A study of Mus musculus with 15 samples.

Results

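Spectrins and ankyrins make the flexible protein mesh under the cell membrane. Spectrin is built of alpha and beta chains that pair side by side and join end to end into tetramers, which cross-link short actin filaments. Ankyrins bind beta spectrin with one part and ion channels, transporters and adhesion proteins with another, and so hold membrane proteins to the mesh. The mesh was first worked out in red blood cells, where Spna1 (alpha I), Spnb1 (beta I) and Ank1 are the main chains, whereas Spna2 (alpha II) and Spnb2 (beta II) are the chains of most other cells, Spnb3 and Spnb4 are best known in neurons, and Ank2 and Ank3 in heart, neurons and epithelia.

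These 6 spectrin and 3 ankyrin genes (older Spna and Spnb names) are 9 of the 26061 genes of the expression table, and all 9 passed the filter on low values that left 19490 genes to test. They were chosen by the values of Spnb1 in shTet1 and shScr, as the family of a gene that was higher in mouse embryonic stem cells (ESCs) depleted of TET1, and Spnb1 is therefore described without a test; the question was whether its relatives moved with it. The cells were E14 ESCs, a line of 129/Ola background grown without feeders in serum and LIF. All 3 groups, of 5 rRNA-depleted RNA-seq libraries each, had received a pLKO.1 lentivirus and puromycin from 24 hours after infection, and were harvested 3 days into selection. The virus carried a control hairpin with no target (shScr), a hairpin against Tet1 (shTet1) or a hairpin against Tet2 (shTet2), whose products oxidise methylated cytosine in DNA. The methods give a single hairpin per target, and the labels name no clones, dates or separate cultures, so p-values measure the spread between these libraries.

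Recovered gene reads per library ranged from 15258291 to 35432425. All 8 ESC markers listed, among them Pou5f1, Nanog and Sox2, had reads in every library, with a summed level of 80170 to 123800 normalised reads. Tet1 in shTet1 averaged 27.8% of its normalised reads in shScr, and Tet2 in shTet2 averaged 26.6%, with no overlap of the groups in either case. Deposited values are variance-stabilised and run on a log2 scale for well-covered genes, where 1 unit is a doubling; 4.25 stands for 0 reads. Normalised reads are the reads per gene divided by a scaling factor per library.

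Because TET enzymes act on cytosines that are followed by guanine, the 250 bases before the annotated start of each gene's longest coding transcript were read from the mm9 genome (NCBIM37, GENCODE vM1), and CG pairs, which read the same on both strands, were counted. Among 17428 tested genes with an annotated start the median was 12 CG pairs (quartiles 5 and 21), and 551 genes had none. Spnb1 had 18, whereas Spna1, its usual partner in red cells, had 0 and Ank3 had 6. These 3 stretches, from the genes whose values varied most in what follows, are printed 5′ to 3′ on the strand of the gene, with CG in capitals.

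Spnb1, chr12:77811535-77811784, minus strand: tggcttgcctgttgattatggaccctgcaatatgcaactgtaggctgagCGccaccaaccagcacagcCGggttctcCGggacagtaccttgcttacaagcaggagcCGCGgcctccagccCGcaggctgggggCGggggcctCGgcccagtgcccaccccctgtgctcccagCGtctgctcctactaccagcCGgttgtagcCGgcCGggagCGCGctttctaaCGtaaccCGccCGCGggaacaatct

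Spna1, chr1:176102657-176102906, plus strand: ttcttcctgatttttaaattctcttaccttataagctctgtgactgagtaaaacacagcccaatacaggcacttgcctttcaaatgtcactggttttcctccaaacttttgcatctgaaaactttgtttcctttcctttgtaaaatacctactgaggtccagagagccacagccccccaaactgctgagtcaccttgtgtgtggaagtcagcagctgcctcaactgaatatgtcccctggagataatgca

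Ank3, chr10:68996720-68996969, plus strand: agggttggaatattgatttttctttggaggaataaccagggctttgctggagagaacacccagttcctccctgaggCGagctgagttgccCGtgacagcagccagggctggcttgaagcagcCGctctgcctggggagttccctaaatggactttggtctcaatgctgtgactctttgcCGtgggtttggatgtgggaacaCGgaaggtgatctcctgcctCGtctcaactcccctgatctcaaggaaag

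Of the other members, Spna2, Spnb2, Spnb4 and Ank1 had 31, 36, 30 and 43 CG pairs in the same window, and Spnb3 and Ank2 had 1 and 3. By this 1 window per gene, the family held both CG-rich and CG-poor starts. Spnb1 and Ank3 each have 3 annotated coding starts, Spna2, Spnb2 and Spnb4 have 5 each, Ank2 has 7 and Ank1 has 14. Only Spna1 and Spnb3 have 1. The deposited values are per gene, so that the start in use was not resolved for genes with several.

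The genes lie on 9 different chromosomes. Spnb1 spans chr12:77681475-77811534 on the minus strand, with 36 exons in its longest coding transcript (2329 residues). Spna1 spans chr1:176102907-176178581 and Spna2 chr2:29821080-29886971, both on the plus strand. Among the other beta spectrins, Spnb2 spans chr11:29999395-30168175 (minus), Spnb3 chr19:4711208-4752353 (plus) and Spnb4 chr7:28141402-28232705 (minus). Ank1 lies at chr8:24085316-24260969 (plus), Ank2 at chr3:126624525-127111949 (minus) and Ank3 at chr10:68996970-69490184 (plus), the latter pair being the longest of the 9 with spans of 487425 and 493215 bases. No exon of Spnb1, Spna1, Spna2, Spnb2, Spnb3 or Ank3 overlapped an exon of another gene. Whether strand was used in counting is not given in the sources used here, so reads in the 6.37% of Ank1 exonic bases shared with Gm15816 and the 0.406% of Ank2 shared with Gm16958, both on the opposite strand, are uncertain, as are those in the 1.38% of Spnb4 shared with Gm20479 on its own strand. Of 12087 stretches of 50 bases in the transcript sequence of Spnb1, 0 occurred in another gene's coding transcripts. The share was under 1% for every member, with the highest at 0.937% for Spnb4.

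Per length, RNA of the general chains was the most abundant in control ESCs. In shScr, Spna2 had 1696 ± 370 normalised reads per kb of exon (SD, n = 5) and Spnb2 738 ± 132. Spnb3 followed at 131 ± 19.0, and these 3 levels stood apart from one another in every library. Below them, Spna1 (76.6 ± 21.3), Ank3 (52.9 ± 20.0), Ank2 (42.4 ± 17.0), Spnb4 (25.5 ± 9.0) and Spnb1 (16.1 ± 3.28) each overlapped the next in that order. Ank1, the red cell ankyrin, was close to absent at 0.236 ± 0.274, with 0 to 8 reads per library. In ESCs, then, red cell alpha spectrin was read at 493 to 862 reads per shScr library and red cell beta spectrin at 129 to 231, whereas red cell ankyrin had almost none.

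**Figure D1:**
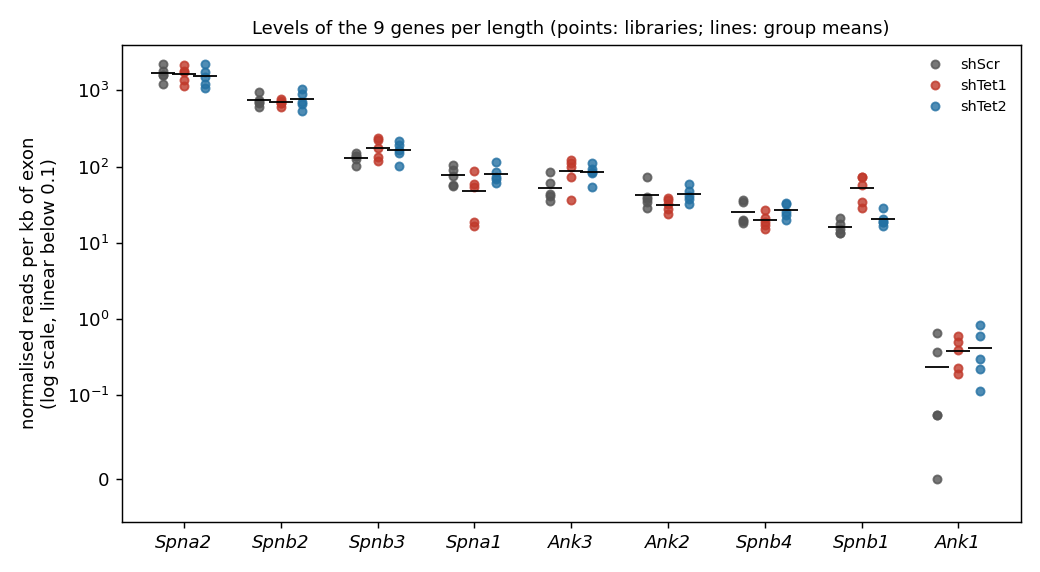
Normalised reads per kb of exon (log scale, linear below 0.1) of the 9 genes in each library (points) with group means (lines), ordered by the shScr mean. Spna2 and Spnb2 lie above all other genes in all 3 groups, Ank1 lies below 1, and the means of Spnb1 are 16.1 in shScr and 53.0 in shTet1.

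Erythroid markers were at low levels beside Spna1 and Spnb1, though not beside Ank1. Of 14 erythroid genes listed, 9 had a read in shScr, 9 in shTet1 and 10 in shTet2, and their summed level was 63.3 to 91.6 normalised reads in shScr, 62.0 to 98.2 in shTet1 and 79.8 to 112 in shTet2, over the whole list. The adult beta globins Hbb-b1 and Hbb-b2 were at 0 in all 15 libraries. Hba-a1 was at 0 in all 5 shScr libraries and at 2.96 to 7.12 normalised reads in shTet2. At these low reads it alone of 8 tested erythroid genes passed against shScr (adjusted p = 0.0272 in limma), that is 12.5%, beside 0.39% of all genes. In that comparison 3 of 8 (37.5%) had an unadjusted p under 0.05, all higher, beside 11.6% of all genes. Of the 8 differences, 4 were above 0 and 4 below 0. The groups did not overlap for 3 of 8, beside 2.7% of all genes. Gata1 was among these, at 7.53 to 16.4 normalised reads in shScr and 21.2 to 38.4 in shTet2. In shTet1 against shScr 0 of 8 passed, beside 0.0718% of all genes. The erythroid list was not alone in shTet2 against shScr. There 4 of 6 heart muscle genes (66.7%) and 4 of 9 neuronal genes (44.4%) were higher at an unadjusted p under 0.05 in limma. So were 2 of 8 skeletal muscle genes (25%), 0 of 8 ESC genes and 8% of all genes. Summed skeletal muscle markers ranged from 1093 to 4800 in shScr, 1429 to 4683 in shTet1 and 1866 to 3262 in shTet2, where Myod1 was at 0 in 13 of 15 libraries, and summed neuronal markers from 7260 to 9689, 6876 to 10870 and 7689 to 10030. In shScr the highest gene of the skeletal muscle list was Mylpf, at 696 to 4198, and that of the neuronal list was Stmn2, at 5204 to 7220. Summed heart muscle markers, mostly reads of Ttn, ranged from 4432 to 10880 in shScr, 1482 to 5962 in shTet1 and 3226 to 10650 in shTet2. Their part in the differences described next was not tested.

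Spnb1 was the member by which the set was chosen. Its deposited values were 7.97, 7.63, 7.65, 8.19 and 7.77 in shScr replicates 1 to 5, and 9.87, 9.84, 8.81, 9.50 and 8.57 in shTet1. All shTet1 libraries lay above all shScr libraries, with replicates 1 and 2 highest, and the means differed by 1.47, or 3.28-fold in normalised reads. In shTet2 it read 8.06, 8.05, 8.16, 8.56 and 7.89, which overlapped shScr. The shTet2 mean was 0.30 above shScr, with all 5 libraries above the shScr library of the same number, again without a test because the shScr libraries entered the choice of the set.

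Replicates 1 and 2 stood apart from replicates 3 to 5 in all 3 groups on the first component of the deviations from group means, which held 37.9% of their variance. RNA came from either of 2 extraction methods that the labels do not tie to libraries, and they name no other batch. Values are therefore also given within each side of that split. The Spnb1 difference between shTet1 and shScr was 2.05 within replicates 1 and 2 and 1.09 within replicates 3 to 5.

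None of its 8 relatives passed the test in the same comparison. In shTet1 against shScr, 0 of 8 passed an adjusted p of 0.05 in limma, where 0.0718% of all tested genes passed, and 2 of 8 (Spna1, lower, and Ank3, higher) had an unadjusted p under 0.05, against 11.8% of all genes. Groups of all 8 overlapped, which was so for all but 2.62% of tested genes. Their median difference was -0.06, and that of all tested genes 0.01. With the replicate number as a block, which the pairing of these libraries allows, 0 of 8 passed as well, where 4.8% of all genes did.

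**Figure D2:**
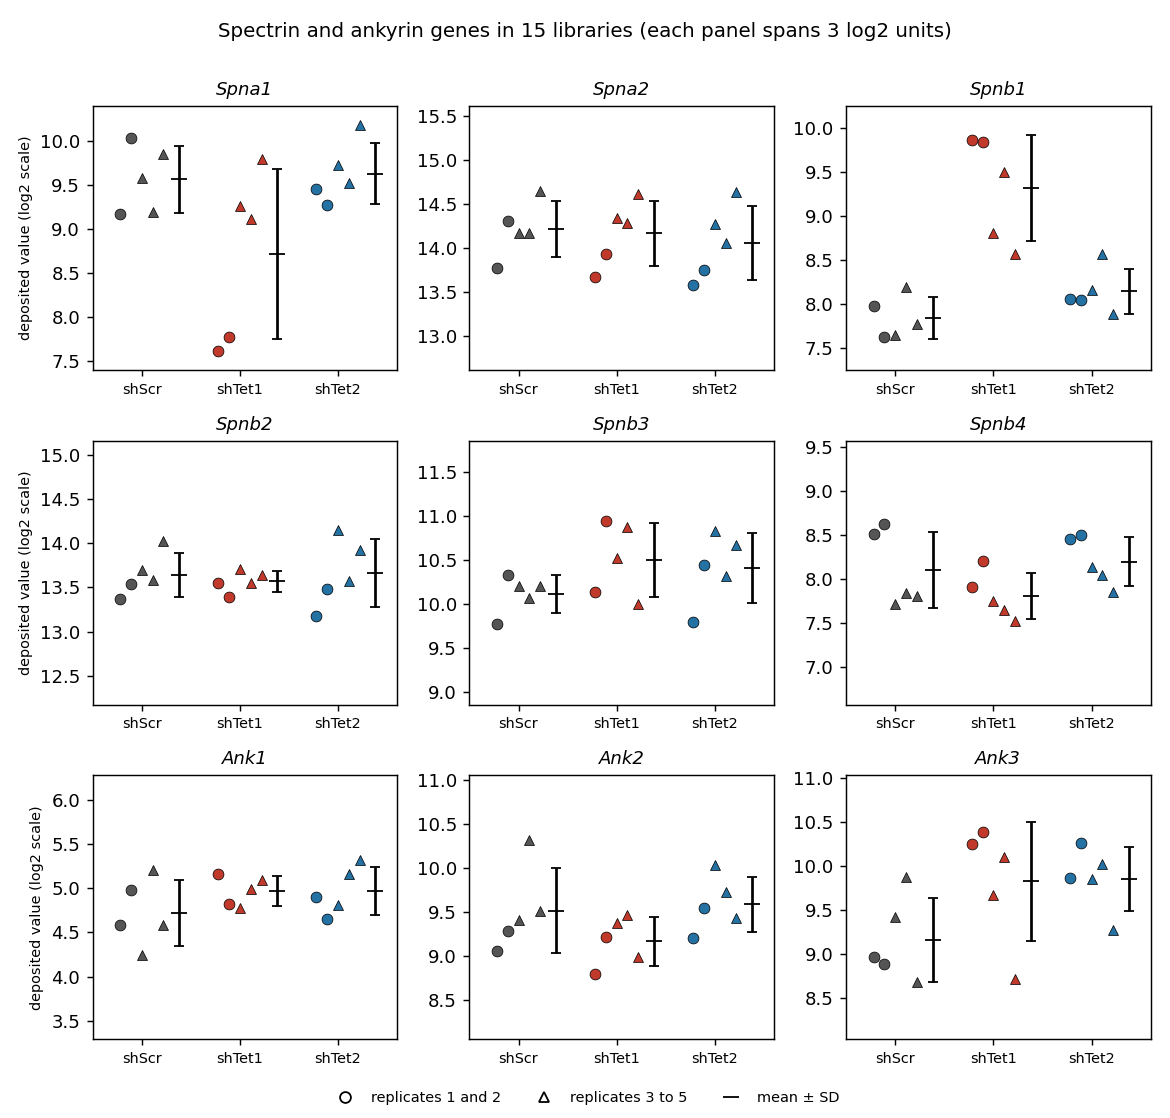
Deposited values (log2 scale) of the 9 genes by group, with circles for replicates 1 and 2, triangles for replicates 3 to 5 and bars for mean ± SD (n = 5); each panel spans 3 units. All shTet1 points of Spnb1 lie above its shScr points, and the lowest Spna1 points, 7.62 and 7.78, are shTet1 replicates 1 and 2.

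Spna1, the alpha chain that pairs with Spnb1 in red cells, had a difference of the opposite sign that did not pass the test. The shScr libraries read 9.18, 10.03, 9.59, 9.19 and 9.85, and the shTet1 libraries 7.62, 7.78, 9.27, 9.12 and 9.80. Replicates 1 and 2 of shTet1 lay more than a unit below every other library of the study, and the remaining shTet1 libraries lay within or just below the range of shScr. The difference of -0.85 (95% interval -1.55 to -0.14; limma, adjusted p = 0.310; two-sided exact permutation p = 0.127) was -1.91 within replicates 1 and 2 and -0.15 within replicates 3 to 5, so that it rested on those 2 libraries, though each shTet1 library was below the shScr library of its number. In shTet2, Spna1 read 9.46, 9.27, 9.73, 9.52 and 10.18, within or near the range of shScr (difference 0.07, interval -0.64 to 0.77).

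The shTet1 libraries with the most Spnb1 had the least Spna1, and replicate 5 had the lowest Spnb1 (8.57) and the highest Spna1 (9.80). As a measure of likeness, with no test since the split between replicates 1 and 2 and the others is shared by both genes, Pearson's r of their deviations from group means was -0.84 over 15 libraries (Spearman's rho -0.80). It was 0.77 for Spnb1 and Ank3 (rho 0.71), and between -0.56 (Spna2) and 0.25 (Spnb4) for the other members except Ank1, which was not above 0 reads in every library and was left out.

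Spna2, the general alpha chain, had group means of 14.22 ± 0.31, 14.17 ± 0.37 and 14.06 ± 0.42 (SD, n = 5) in shScr, shTet1 and shTet2. Its shTet1 difference was -0.05, with an interval of -0.49 to 0.40. Spna2 made up 95.7% of the alpha spectrin reads per kb in shScr and 97.4% in shTet1.

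None of the 3 other beta spectrins of the set passed the test in shTet1 against shScr. Spnb2, the general beta chain, had 13.64 ± 0.25 in shScr and 13.57 ± 0.12 in shTet1, a difference of -0.07 (interval -0.42 to 0.28). Spnb3 was 0.38 higher (interval -0.05 to 0.81, adjusted p = 0.495 in limma) and Spnb4 0.29 lower, that is a difference of -0.29 (interval -0.72 to 0.13, adjusted p = 0.634). With the replicate block in limma the interval was 0.06 to 0.70 for Spnb3 (adjusted p = 0.161) and -0.54 to -0.05 for Spnb4 (adjusted p = 0.160). The upper bounds of all 3 unblocked intervals were under the Spnb1 difference of 1.47. That difference chose the set, has no interval of its own and was 1.09 within replicates 3 to 5, so this is a description only. In shScr, Spnb4 read 8.51 and 8.63 in replicates 1 and 2 and 7.72 to 7.84 in replicates 3 to 5, which shows the split in a control group.

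As a share of the summed reads per kb of Spnb1 to Spnb4, Spnb1 made up 1.82% ± 0.529 in the controls, 5.62% ± 2.29 after depletion of TET1 and 2.22% ± 0.724 after that of TET2 (SD, n = 5). Spnb5, a beta spectrin outside the set, was left out of this sum. The Spnb1 share ranged from 3.18% to 8.09% over the shTet1 libraries and from 1.33% to 2.44% over the shScr libraries. Spnb2 stayed the bulk in each group at 80.8%, 73.7% and 77.9%. The ratio of summed alpha spectrin to the same beta spectrin sum per kb averaged 1.93 ± 0.183 in the controls, with 1.81 ± 0.498 for shTet1 and 1.67 ± 0.277 for shTet2 and overlapping ranges.

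Among the ankyrins, Ank3, which gathers sodium channels at the axon initial segment and holds proteins at the lateral membrane of epithelia, was higher in both knockdowns on average without passing the test in the unblocked fit. The shScr libraries read 8.97, 8.88, 9.41, 9.87 and 8.68. Those of shTet1 read 10.24, 10.38, 9.67, 10.10 and 8.71, and those of shTet2 read 9.86, 10.26, 9.85, 10.02 and 9.27. All 5 libraries of each knockdown lay above the shScr library of the same number, and the groups overlapped through shScr replicate 4 and through replicate 5 of each knockdown.

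The Ank3 difference was 0.66 in shTet1 against shScr (interval 0.07 to 1.25; limma, adjusted p = 0.358; exact permutation p = 0.111). It was 1.39 within replicates 1 and 2 and 0.18 within replicates 3 to 5. In shTet2 against shScr, which uses the same shScr libraries, it was 0.69 (interval 0.10 to 1.28; adjusted p = 0.342; exact permutation p = 0.0556), with 1.13 and 0.39 on the sides of the split. With the replicate block the adjusted p was 0.0516 in shTet1 and 0.0470 in shTet2, where the numbers did not all pair. Of the ankyrin reads per kb, Ank3 made up 55.4% ± 6.10 in shScr, 71.2% ± 10.2 in shTet1 and 65.7% ± 7.04 in shTet2.

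Ank2, the ankyrin of heart and nerve that anchors ion transporters, was 0.35 lower in shTet1, that is a difference of -0.35 (interval -0.79 to 0.09, adjusted p = 0.566 in limma), and each shTet1 library was below the shScr library of its number. Its highest value, 10.32, was in shScr replicate 4, and without that library the difference was -0.15. That library and 3 others (shTet1 replicates 3 and 4 and shTet2 replicate 4) also had more reads in olfactory and vomeronasal receptor genes. These were 54.5 to 64.7 RPM (reads scaled to a common library total), against 11.1 to 26.5 in the rest. The same shScr replicate 4 was the highest shScr library for Spnb1 (8.19), Ank1, Ank3 (9.87), Epb4.1l3 and Syne2. For Spna1, Spna2, Spnb2, Spnb3 and Spnb4 it was not. The part of the receptor reads in the values of Ank2 or any of these genes was not tested. Ank1 had 0 to 8 reads in shScr, 2 to 11 in shTet1 and 2 to 14 in shTet2, with overlapping groups and no adjusted p under 0.05 in limma (0.652 in shTet1 and 0.660 in shTet2 against shScr).

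**Figure D3:**
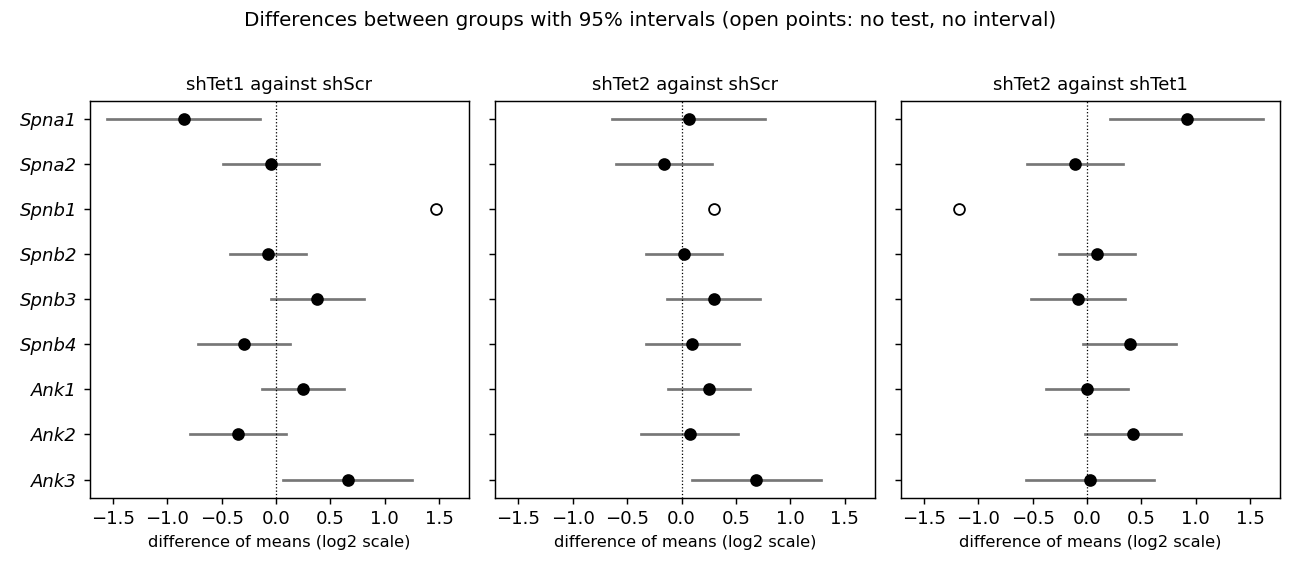
Difference of group means on the log2 scale (points) with 95% intervals from limma (lines) for the 9 genes in the 3 comparisons; open points had no test. Spnb1, by which the set was chosen, lies at 1.47 in shTet1 against shScr. Spna1 lies at -0.85 there and at 0.92 in shTet2 against shTet1.

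In shTet2 against shScr, 0 of 8 relatives passed the adjusted threshold, where 0.39% of all tested genes did, and 1 of 8 (Ank3) had an unadjusted p under 0.05, against 11.6% of all genes. The median difference over the 8 was 0.09, beside 0.04 for all genes. In shTet2 against shTet1, 0 of 8 relatives passed, where 4.24% of all genes did, and 1 of 8 (Spna1) had an unadjusted p under 0.05, against 15.7%.

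In the comparison of the knockdowns, the replicate block changed calls among the members. Spna1 was 0.92 higher in shTet2 than in shTet1 (interval 0.21 to 1.62, adjusted p = 0.160 in limma; 0.0285 with the block), in 5 of 5 pairs; without shTet1 replicate 5 it was 1.19 (adjusted p = 0.038 without the block). Spnb4 was 0.39 higher (interval -0.03 to 0.82, adjusted p = 0.376; 0.0405 with the block), again in 5 of 5 pairs. With the block 2 of 8 relatives thus passed, where 11.2% of all genes did. For Spna1 the difference was 1.67 within replicates 1 and 2 and 0.42 within replicates 3 to 5, and for Spnb4 0.43 and 0.37. Spnb1 itself was 1.17 below its shTet1 mean in shTet2 (difference -1.17), with no overlap, given without a test because it shares the shTet1 libraries with the choice of the set.

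The proteins that spectrin and ankyrin work with were taken as 53 partner genes in 7 groups by role, of which 52 were tested. In shTet1 against shScr, 0 of 52 passed the adjusted threshold and 8 (15.4%) had an unadjusted p under 0.05, beside 11.8% of all genes; 6 of these (11.5%) were higher, beside 6.55% of all genes. The median difference was 0.12 for the partners and 0.01 for all genes. With the block 4 of 52 passed, where 4.8% of all genes did, and all of these were higher: Epb4.1l3, a protein 4.1 that links spectrin and actin to membrane proteins, by 0.75 (adjusted p = 0.0065 with the block), the sodium-calcium exchanger Slc8a1 by 0.60 (0.0255), the calcium release channel Itpr1 by 0.42 (0.0346) and the calpain small subunit Capns1 by 0.42 (0.0268).

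Epb4.1l3 had the largest difference from shScr of the partners in shTet1. The shScr libraries read 8.27, 8.21, 8.67, 9.08 and 8.75. Those of shTet1 read 9.40, 9.35, 9.37, 9.54 and 9.07, and those of shTet2 read 9.003, 9.03, 9.41, 9.68 and 9.48. Both knockdowns lay above shScr except for shScr replicate 4, which reached the lowest shTet1 and shTet2 libraries. The difference was 0.75 in shTet1 (interval 0.38 to 1.13; limma, adjusted p = 0.0907; exact permutation p = 0.0159) and 0.72 in shTet2 (interval 0.35 to 1.10; adjusted p = 0.0813; exact permutation p = 0.0238), and the comparisons share the shScr libraries. The difference between the knockdowns was -0.03 (interval -0.40 to 0.34).

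The adducins cap and bundle the actin ends of the mesh. Add3 read 9.95, 9.29, 10.36, 10.31 and 9.82 in shScr and 10.92, 10.68, 10.38, 10.60 and 10.05 in shTet1, a difference of 0.58 (interval 0.16 to 1.00; limma, adjusted p = 0.237) that was 1.18 within replicates 1 and 2 and 0.18 within the others. In shTet2 against shTet1 it differed by -0.53 (interval -0.96 to -0.11; adjusted p = 0.174). Add2 was almost silent, with 0 to 4 reads in shScr, 0 to 5 in shTet1 and 5 to 17 in shTet2. Its 5 shTet2 libraries lay above all others, and it rose in shTet2 against shTet1 by 0.59 on the deposited scale (adjusted p = 0.0402 in limma), from 1.49 ± 2.16 to 7.33 ± 1.63 normalised reads. At these low reads the call held in 3 of 15 fits that left out 1 library (replicate 2 or 4 of shScr, or replicate 4 of shTet1; adjusted p up to 0.109 in the others), and was lost after quantile normalisation (0.0528).

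In shTet2 against shScr, 1 of 52 partners passed (1.92%, beside 0.39% of all genes), and 7 (13.5%) had an unadjusted p under 0.05, beside 11.6%. All 7 were higher, as were 8% of all genes. The one that passed was Syne2, a giant protein with spectrin repeats that ties the nucleus to the cytoskeleton. The shScr libraries read 9.41, 9.90, 10.04, 10.57 and 9.998. Those of shTet1 read 10.36, 10.56, 10.48, 10.71 and 9.87, and those of shTet2 read 10.54, 10.99, 11.32, 11.29 and 10.82. Only shScr replicate 4 reached into the shTet2 range, and Syne2 rose by 1.01 in shTet2 (interval 0.58 to 1.43; adjusted p = 0.0372 in limma), a value that was 1.11 within replicates 1 and 2 and 0.94 within replicates 3 to 5. The call was lost after centring each library on its median (adjusted p = 0.0699), and in 9 of 15 fits that left out 1 library (replicate 1, 2, 3 or 5 of shScr, replicate 3 of shTet1, or replicate 1, 2, 3 or 4 of shTet2; adjusted p up to 0.108). In shTet1 the difference was 0.41 (interval -0.01 to 0.84).

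In shTet2 against shTet1, 3 of 52 partners passed (5.77%, beside 4.24% of all genes), and these 3 were higher: Add2, Tpm4 and Actn2. Slc8a1 was lower without passing (difference -0.46, adjusted p = 0.0678 in limma), and it passed in 8 of 26 alternatives, among them median centring, quantile normalisation and array weights (down to 0.0133). By library, 6.04% of all genes did not overlap in this comparison. Tpm4, a tropomyosin that lies along the actin filaments, read 10.62, 10.64, 10.82, 10.56 and 10.82 in shTet1 and 11.47, 11.27, 10.91, 11.28 and 11.45 in shTet2, without overlap, and rose by 0.59 (interval 0.30 to 0.88; adjusted p = 0.0193 in limma); the call was lost without shTet1 replicate 2 or 4 or shTet2 replicate 1 (adjusted p up to 0.0589) and after median centring (0.0753). Its shScr mean, 10.99 ± 0.24, lay between those of the knockdowns.

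Actn2, an alpha-actinin that cross-links actin, rose by 0.71 in the same comparison (interval 0.30 to 1.13; adjusted p = 0.0473 in limma), with 31 to 57 reads per shTet1 library and 49 to 170 per shTet2 library; the call held in 5 of 15 fits that left out 1 library (adjusted p up to 0.139), failing without any single shTet2 library but replicate 5, and was lost after median centring, after quantile normalisation and with no filter on low values (up to 0.0977). Of 6 heart muscle markers tested, 2 (33.3%) rose in this comparison, beside 4.24% of all genes called in either direction. These were the myosin heavy chains Myh6 (116 to 267 normalised reads in shTet1 and 399 to 465 in shTet2, adjusted p = 0.0133 in limma) and Myh7 (38.0 to 119 and 198 to 260, adjusted p = 0.00503). Their groups did not overlap, as for 6.04% of all genes. Of 8 skeletal muscle markers tested, 1 (12.5%) rose, the troponin Tnnt3 (adjusted p = 0.0473 in limma). It had few reads, at 0 to 7.26 normalised reads in shTet1 and 5.59 to 11.9 in shTet2. Their part in the Tpm4 and Actn2 values was not tested.

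**Figure D4:**
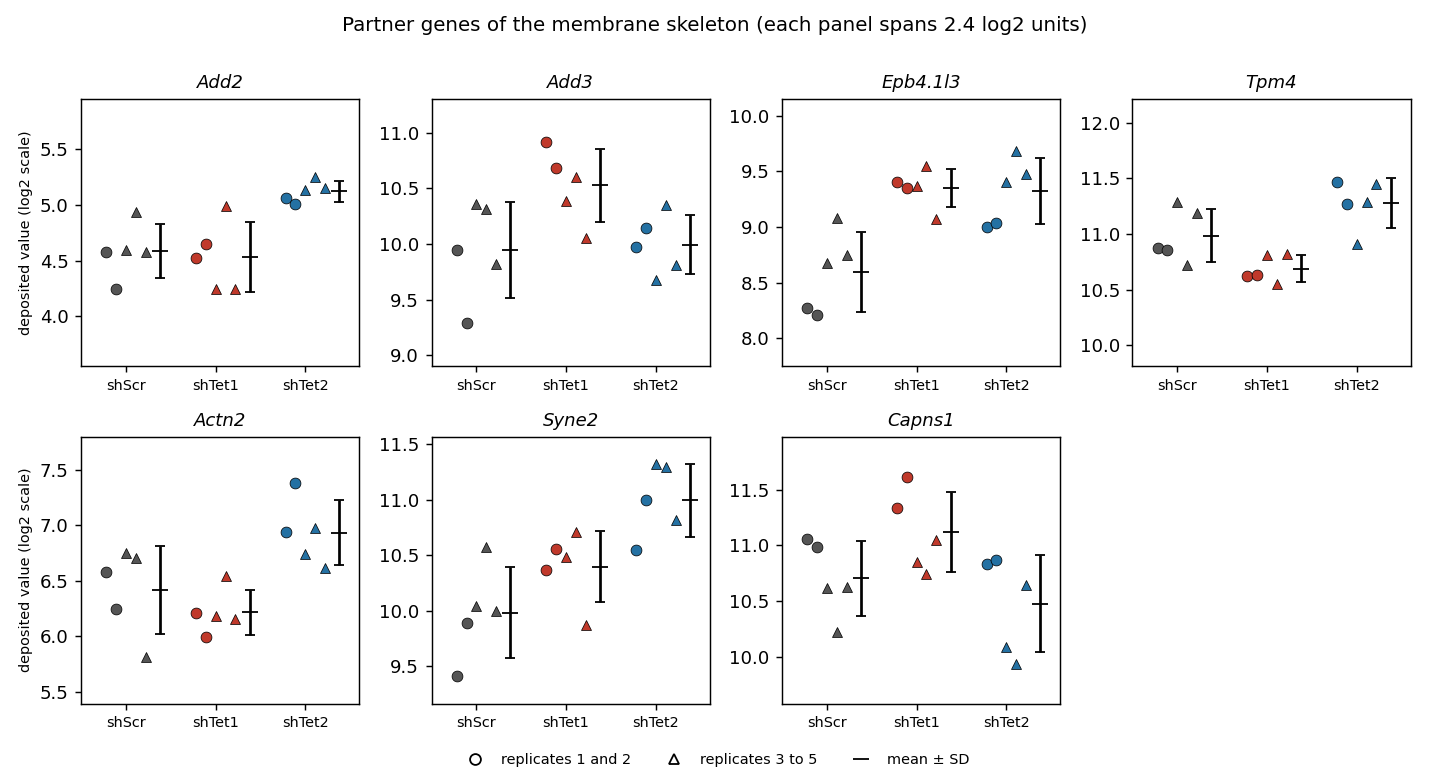
Deposited values (log2 scale) of 7 partner genes by group, with circles for replicates 1 and 2, triangles for replicates 3 to 5 and bars for mean ± SD (n = 5); each panel spans 2.4 units. The shTet2 points of Add2, Tpm4 and Actn2 lie above those of shTet1.

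With the block, which these 2 groups' pairing allows, 6 of 52 partners passed in shTet2 against shTet1, where 11.2% of all genes did. Those gained were Capns1 (difference -0.64, adjusted p = 0.000478 with the block, 0.11 without), Slc8a1 (-0.46, adjusted p = 0.0437) and Syne2 (0.59, adjusted p = 0.0078). Of the role groups, the 11 other red cell skeleton proteins had medians of 0.02, 0.05 and -0.02 in the 3 comparisons, the 11 spectrin-repeat proteins -0.10, 0.04 and 0.27, the 19 membrane proteins held by ankyrin or 4.1 0.18, 0.14 and -0.10, and the 4 members of the 4.1 family 0.27, 0.20 and -0.02 (shTet1 against control, shTet2 against control, then shTet2 against shTet1). The 3 adducins had 0.37, 0.05 and -0.37 and the 3 calpain genes 0.24, -0.07 and -0.15. Spnb5, a further beta spectrin, differed by 0.32, 0.55 and 0.23, with no adjusted p under 0.05.

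Genes were also ranked by their likeness to Spnb1, a search over too many genes to be set against its few relatives. Among 12690 genes above 0 reads in every library, those with the highest Pearson's r to its deposited values over 15 libraries were Paqr8 (0.949), Clip1 (0.930), Tmem30b (0.924), St6gal1 (0.924) and Plekhg3 (0.918), a description without a test, since the difference between shTet1 and the other groups that chose Spnb1 enters r. After subtraction of group means, the highest were Tmem30b (0.964), Dnm1 (0.949), Gga2 (0.937), Arid3a (0.924) and Epn2 (0.916), over which the split between replicates 1 and 2 and the others is shared. Tmem30b, a subunit of lipid flippases, was in both lists; it had 16 to 42 reads in shScr and 25 to 169 in shTet1.

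Plekhg3, a guanine nucleotide exchange factor, is also the closest tested neighbour of Spnb1. It spans chr12:77634547-77680026 on the plus strand, so that the genes run towards each other and their annotated ends lie 1449 bases apart. In shScr it read 8.04, 7.75, 8.24, 8.40 and 8.33, and in shTet1 9.39, 9.40, 8.92, 9.20 and 8.66. All shTet1 libraries lay above all shScr libraries, which was so for 1.5% of all genes, and replicates 1 and 2 were highest, as for Spnb1.

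The Plekhg3 difference in shTet1 against shScr was 0.96 (interval 0.58 to 1.35; limma, adjusted p = 0.0527, and 0.0089 with the block; exact permutation p = 0.00794, the smallest that 5 against 5 allows), 1.501 within replicates 1 and 2 and 0.60 within replicates 3 to 5. In normalised reads it was 2.10-fold. In shTet2 it read 7.86, 8.30, 8.65, 8.49 and 8.42, within or near the range of shScr (difference 0.19, interval -0.20 to 0.58), and 0.77 below shTet1 (difference -0.77, adjusted p = 0.0202 in limma, up to 0.0648 without replicate 1 or 2 of either knockdown), with no overlap. Whether reads past the end of one gene were counted in the other was not tested.

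Of the 13 tested genes within 250000 bases of Spnb1, 0 passed an adjusted p of 0.05 in shTet1 against shScr (0.0718% of all genes did), and 3 had an unadjusted p under 0.05, all higher, beside 6.55% of all genes that were higher at that threshold. Besides Plekhg3 these were Rab15, a small GTPase of endosome recycling that lies 87413 bases from Spnb1 on the side of its start, and Zbtb25, a zinc finger protein 210928 bases away on the side of its end. Rab15 read 8.25, 8.31, 8.27, 8.35 and 7.655 in shScr and 8.999, 9.64, 8.71, 8.76 and 8.36 in shTet1, all above shScr, with a difference of 0.73 (interval 0.23 to 1.22; limma, adjusted p = 0.202, and 0.0113 with the block). Zbtb25 differed by 0.48 (adjusted p = 0.295) with overlapping groups.

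The other 10 neighbours differed by -0.19 to 0.31, among them Churc1 and Gpx2, which lie between Spnb1 and Rab15 (differences -0.02 and -0.10), and Fntb, whose span encloses Rab15 on the opposite strand (difference -0.09).

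**Figure D5:**
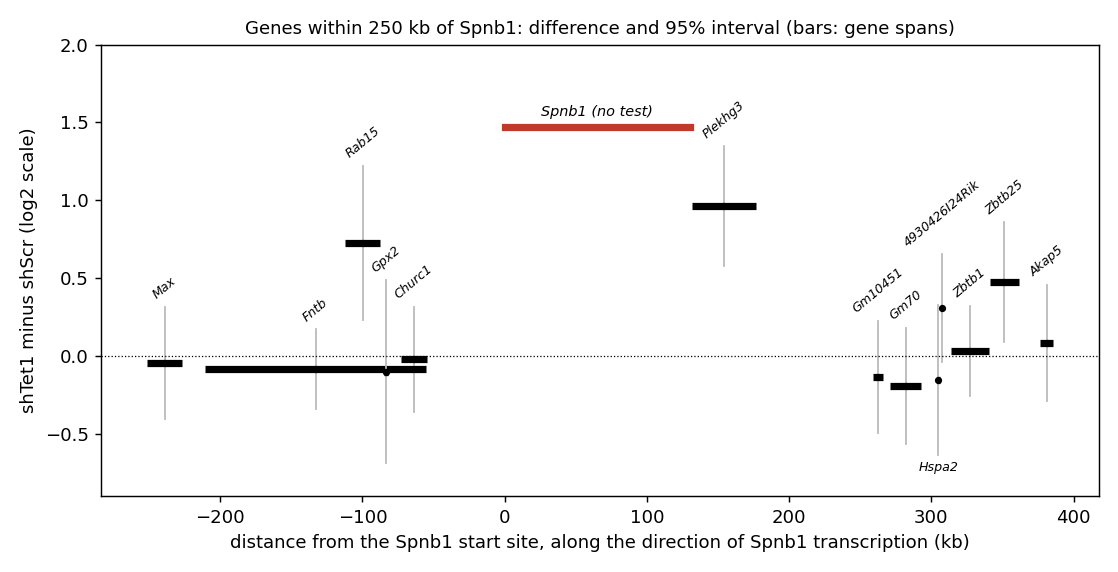
Difference between shTet1 and shScr (log2 scale, vertical) of genes within 250 kb of Spnb1 against their distance from its start site in kb, counted along its direction of transcription; bars span each gene and thin lines are 95% intervals. Plekhg3, next to the end of Spnb1, lies at 0.96, and Rab15 at 0.73, while Fntb and Churc1 lie near 0.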

How the data were processed

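RNA-seq was analysed in 15 libraries (3 groups of 5, from the labels). Per the labels and the study's methods, the authors trimmed reads with Trim Galore 0.3.3, aligned them to mm9 with TopHat2 2.0.9, counted reads per gene in Seqmonk and applied the variance-stabilising transformation of DESeq2. The deposited gene values are thus on a log2 scale; undoing the transformation gave whole reads within 0.01 for 100% of values. The deposited table of repeats was not used here.

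Differences came from limma 3.58.1 in R 4.3.3 (lmFit, eBayes with a variance trend) over all 15 libraries with group as the only term, for the 19490 genes above the table minimum in at least 5 libraries, two-sided, Benjamini-Hochberg adjusted over all of them (threshold 0.05). Exact permutation tests took 5 against 5 libraries. The fit was tested on simulated data. Lengths are the merged exons of GENCODE vM1, the first 250 bases upstream exclude transcribed sequence of the transcript used, and fold changes are ratios of mean normalised reads.

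The members and lists were chosen with earlier results of these data known. Named were all members, the 5 genes most like Spnb1 by each of 2 correlations, and genes within 250000 bases of it. Partner genes past the threshold, with or without the block, were named as well. So were partners among the 2 largest differences each way at an unadjusted p under 0.05. The latter had to average at least 2 units over the table minimum in the higher group. Deviations of same-numbered libraries from group means correlated at 0.374 to 0.657 (shTet1 and shScr) and 0.330 to 0.731 (shTet2 and shTet1) in 5 of 5 pairs, so that replicate numbers were taken as pairs there. Alternatives changed the filter, variance trend, scaling, weights, libraries and block, or used voom on recovered reads. 1 partner gene is not reported here and was left out of the partner counts. Marker lists covered ESCs, red cells, muscle, heart and neurons.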

Additional observations from a re-analysis of the deposited data

Results flagged for a closer look

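In 117 groups of 5 libraries (39 genes: the members, Tet1, Tet2, named partners, genes like Spnb1 and its neighbours), 2 held a library far from the other 4 by Dixon's criterion, which flags about 1 in 20 groups by chance. Rab15 was 7.655 in shScr replicate 5 and 8.25 to 8.35 in the others. Max, a neighbour of Spnb1 and partner of Myc proteins, was 9.65 in shTet2 replicate 4 and 10.12 to 10.30 in the others.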

How the results depend on the processing

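With the replicate number as a block, whose pairs did not all pass for shTet2 against shScr (correlations from 0.00789 to 0.769), 1 member (Ank3, adjusted p = 0.0470) and 3 partners passed there; among the members 2 passed in shTet2 against shTet1, and among the partners 4 in shTet1 against shScr and 6 in shTet2 against shTet1. Over all genes it gave 935, 840 and 2178 calls, beside 14, 76 and 827 without it. In shTet2 against shScr, 0 partners passed after median centring, and 0 within replicates 1 and 2 or within replicates 3 to 5. In shTet2 against shTet1, 1 member (Spna1) and 1 partner passed within replicates 1 and 2, and 0 partners within replicates 3 to 5. Without 1 library, 0 to 2 partners passed in shTet1 against shScr (2, Epb4.1l3 and Slc8a1, without shTet1 replicate 5), 0 to 2 in shTet2 against shScr and 0 to 4 in shTet2 against shTet1, where 0 to 1 members passed (Spna1, without shTet1 replicate 5). Shares of all genes passing are not given for the median-centred, split and leave-1-out fits. Counts from those fits therefore say nothing on whether these genes passed more often than others. The differences that changed sign had no adjusted p under 0.05 in the values reported. In shTet1 against shScr, Spna2 was 0.0376 after quantile normalisation, 0.0827 within replicates 3 to 5 and -0.157 to 0.0792 without 1 library, and Spnb2 was 0.022 within replicates 1 and 2 and -0.142 to 0.0227 without 1 library. In shTet2 against shScr, Spna1 was -0.0419 after median centring, -0.0249 with array weights, -0.24 within replicates 1 and 2 and -0.0709 to 0.182 without 1 library. Spnb2 was -0.0858, -0.127 and -0.118 under the same 3 settings and -0.101 to 0.142 without 1 library. Spnb4 was -0.00903 after median centring and -0.0864 within replicates 1 and 2, Ank1 -0.00281 within replicates 1 and 2, and Ank2 -0.0327 after median centring, -0.0143 within replicates 3 to 5 and -0.0405 to 0.276 without 1 library. In shTet2 against shTet1, Spna2 was -0.257 to 0.00695 without 1 library, Spnb2 -0.14 within replicates 1 and 2 and -0.0272 to 0.216 without 1 library, and Spnb3 0.143 within replicates 3 to 5 and -0.206 to 0.0717 without 1 library. Ank1 was -0.0537 after median centring, -0.11 after quantile normalisation, -0.018 with array weights, -0.0388 with voom, -0.218 within replicates 1 and 2 and -0.0866 to 0.0815 without 1 library. Ank3 was -0.0291 after median centring, -0.0117 with array weights, -0.257 within replicates 1 and 2 and -0.251 to 0.172 without 1 library. The cause was not tested. Centring moved the median difference by 0.108 in shTet2 against shScr. Spnb1 in shTet1 against shScr was 1.34 to 1.66 without 1 library. Ank1 had too few reads to stay in the fit of genes above 0 reads in every library. Plekhg3 in shTet1 against shScr passed in 5 of 26 alternatives, with differences of 0.604 to 1.5 and adjusted p of 0.0089 to 0.85.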
